A study of Arabidopsis thaliana with 6 samples.

Results

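SWEET1 and SWEET2, which encode sugar transporters of the SWEET family, were followed in seedlings of the Arabidopsis thaliana mutant esd7-1 and of a wild type. They are 2 of the 17 genes of the family, of which 16 had a probe set that names them alone. SWEET12 was not analysed here. On the arrays, 13513 of 22746 plant probe sets named 1 gene, 13356 different genes in all. Each of the pair was measured by 1 probe set. Both were selected on their measured difference between esd7-1 and wild type, the furthest below 0 within the family, so that difference is given as a description without a test. The tested seedlings carried the esd7-1 allele, and the comparison seedlings were wild type of the accession Landsberg erecta (Ler), an accession that carries the erecta mutation. The labels do not state the accession background of esd7-1, so an effect of the allele and a difference of background cannot be told apart. ESD7 encodes the catalytic part of DNA polymerase epsilon, which copies the leading strand, and esd7-1 plants are known to flower early. Both genotypes were 14 days old, grew in short days without further treatment, and were collected 8 h after dawn, with 3 arrays for each genotype and a separate pool of plants behind each array.

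SWEET proteins are membrane carriers that let sugars move down their concentration gradient in either direction, without coupling to protons. The plant family falls into 4 clades. Members of clades I and II are known mainly as hexose carriers, those of clade III as sucrose carriers, and those of clade IV as carriers of the vacuolar membrane. SWEET1 is known as a glucose carrier of the plasma membrane. SWEET2, also of clade I, is known as a glucose carrier of the vacuolar membrane that is best described in roots, where it limits the loss of sugar to the soil.

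SWEET2 (AT3G14770, chromosome 3) read lower in esd7-1 than in Ler on every array. The values are RMA expression on the log2 scale, in which a step of 1 is a doubling of signal. SWEET2 read 5.50, 5.47 and 5.35 in esd7-1 replicates 1, 2 and 3, against 7.05, 6.81 and 6.21 in Ler replicates 1, 2 and 3. The highest esd7-1 value lay 0.71 below the lowest Ler value. SWEET2 averaged 5.44 ± 0.08 in esd7-1 and 6.69 ± 0.43 in Ler (SD, n = 3 each), a log2 difference of -1.25, or 2.38-fold lower in the mutant. The 3 mutant arrays spanned only 0.15, while the 3 Ler arrays spanned 0.84 because replicate 3 lay apart from the other Ler arrays on this gene. Over the 9 possible comparisons of an esd7-1 array with a Ler array, the difference ran between -1.70 and -0.71.

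SWEET1 (AT1G21460, chromosome 1) also read lower in esd7-1 on every array. It read 7.57, 7.34 and 6.93 in esd7-1 replicates 1, 2 and 3, against 8.26, 8.05 and 8.15 in Ler replicates 1, 2 and 3. The groups were separated by 0.48 at their closest. SWEET1 averaged 7.28 ± 0.32 in esd7-1 and 8.15 ± 0.11 in Ler (SD, n = 3 each), a log2 difference of -0.87, or 1.83-fold lower in the mutant. Here the spread lay in the mutant, whose arrays spanned 0.64, and the Ler arrays spanned 0.21. The 9 comparisons between arrays gave -1.33 to -0.48. In whole seedlings, fewer cells of a type that expresses a gene and less RNA per cell cannot be told apart.

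**Figure D1:**
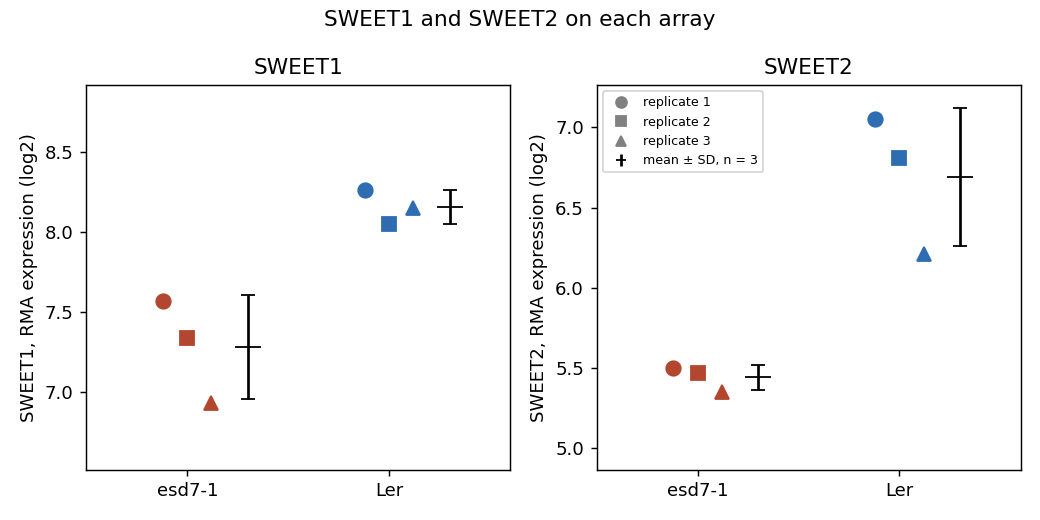
RMA expression on the log2 scale (vertical axes, which cover the same span around each gene's own level) of SWEET1 and SWEET2 in esd7-1 and Ler seedlings; each point is 1 array and the bars are mean ± SD (n = 3). The 3 esd7-1 arrays lie below the 3 Ler arrays for both genes, with 1 low esd7-1 array for SWEET1 and 1 low Ler array for SWEET2.

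Both genes were thus separated between the genotypes, with all esd7-1 arrays below all Ler arrays, as were 5.69% of all 22746 probe sets. Only 7 probe sets of the 22746 had a lower difference than SWEET2, and 39 had a lower one than SWEET1. Among the probe sets that name 1 gene, SWEET2 was number 4 and SWEET1 number 18 from the lowest difference. In the fit over all probe sets with limma, 0 of 22746 had an adjusted p under 0.05 (0%), and 1315 had an unadjusted p under 0.05 (5.78%). No gene of the table was therefore called. The arrays' medians lay between 4.81 and 4.89.

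**Figure D2:**
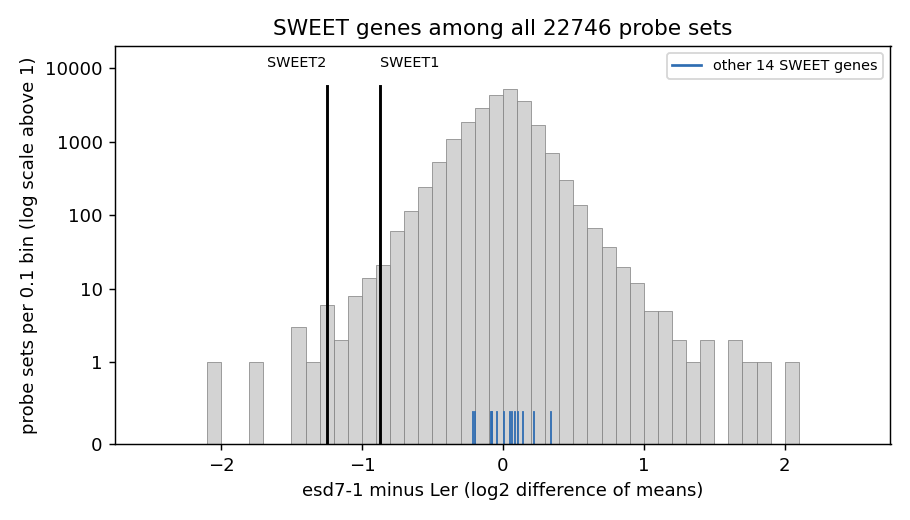
Number of probe sets (vertical axis, logarithmic above 1) by esd7-1 minus Ler difference of means (horizontal axis, log2, bins of 0.1), with long black lines at SWEET2 and SWEET1 and short blue lines at the other 14 measured SWEET genes. SWEET2 at -1.25 and SWEET1 at -0.87 lie in the sparse lower tail, and the other 14 genes lie between -0.21 and 0.34.

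In the bacterial poly-A control RNA, a labelling control that holds no plant RNA, 2 arrays stood apart: esd7-1 replicate 3 and Ler replicate 2. It averaged 6.18 and 6.84 on these arrays, against 5.47 to 5.60 on the others. Between these 2 arrays SWEET2 differed by -1.46 and SWEET1 by -1.12. Among the other 4 arrays SWEET2 differed by -1.15 and SWEET1 by -0.75, and because the genotypes do not overlap for either gene, a lower value in the mutant was fixed for any such split. SWEET1 had its lowest value of each genotype on these arrays, which differed from the mean of the other replicates by -0.53 in esd7-1 and by -0.16 in Ler. For SWEET2 the same shifts were -0.14 in esd7-1 and 0.18 in Ler. The arrays of replicate 1 shared a high 25S rRNA control, at 8.99 in esd7-1 and 9.66 in Ler, against 4.69 to 5.77 on the others. SWEET1 and SWEET2 each had their highest value of either genotype on these arrays, and the part of the rRNA signal in this was not tested.

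Markers of root and of green leaf were read beside the pair, since SWEET2 is known from roots. Of 11 root markers 3 were measured: PYK10, a beta-glucosidase, and the root-hair expansins EXPA7 and EXPA18. Their mean level ran between 6.24 and 7.35 over the esd7-1 arrays and between 6.29 and 7.0 over the Ler arrays, highest on the 2 arrays that stood apart. None of the 3 passed (limma adjusted p between 0.90 and 0.95). The 2 measured leaf markers of 6, the Rubisco activase gene RCA and the photosystem I subunit gene PSAN, averaged 13.06 to 13.31 in esd7-1 and 13.23 to 13.36 in Ler. Neither passed, with limma adjusted p of 0.884 and 0.904. None of the 5 markers had an unadjusted p under 0.05 in limma, against 5.78% of all probe sets. SWEET1 and SWEET2 were both lowest on the esd7-1 array with the highest root marker level, at 6.93 and 5.35. On Ler replicate 2, the Ler array with the highest root marker level, SWEET1 was lowest within Ler, at 8.05. SWEET2 was not, at 6.81 against 6.21 on Ler replicate 3. The part of the root markers in these values was not tested. None of the 8 phloem markers was analysed here.

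The other 14 measured SWEET genes had differences between -0.21 and 0.34. Of the 14, 8 read higher and 6 lower in esd7-1, and their median log2 difference was 0.03, against 0.0067 over all probe sets. None had an adjusted p under 0.05 in limma, against 0% of all 22746 probe sets. None had an unadjusted p under 0.05 in limma, against 5.78% of all probe sets. The adjusted p lay between 0.846 and 0.989. SWEET5 was the 1 gene whose esd7-1 arrays all lay above the Ler arrays, a separation found in 5.64% of all probe sets. SWEET16 was the 1 gene whose esd7-1 arrays all lay below, as for 5.69% of all probe sets. The lowest difference after those of SWEET2 and SWEET1 was -0.21, for SWEET11.

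SWEET3, the remaining clade I gene, read 3.72, 3.62 and 3.98 in esd7-1, against 3.67, 3.89 and 3.73 in Ler. The groups overlapped and the difference of 0.01 had a 95% interval of -0.30 to 0.32 in limma. Its probe set lay at percentile 22.6 of mean signal, where RMA values are compressed, so a difference in transcript could be understated there. SWEET1 and SWEET2 lay at percentiles 85.0 and 66.7. These percentiles describe how bright a probe set is and do not rank transcripts.

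All 5 clade II genes were dim, at percentiles 16.7 to 32.0. SWEET4, a hexose carrier, differed by -0.08, SWEET6 by 0.08 and SWEET7 by -0.04. SWEET8, known as RUPTURED POLLEN GRAIN1 for its part in pollen wall formation, differed by 0.05. SWEET5, described in the vegetative cell of pollen, read 3.92, 3.89 and 3.86 in esd7-1, against 3.80, 3.71 and 3.83 in Ler. Its groups did not overlap, but the difference was 0.11 with a 95% interval of -0.11 to 0.33. The limma adjusted p was 0.846.

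Among the 6 measured clade III genes, SWEET11, which exports sucrose towards the phloem in leaves, had the brightest probe set of the family, at percentile 96.5. It read 9.93, 9.98 and 9.75 in esd7-1, against 10.00, 10.37 and 9.92 in Ler. The groups overlapped, and the difference of -0.21 had a 95% interval of -0.56 to 0.14 (limma adjusted p of 0.846). Without the 2 arrays that stood apart it was -0.005. SWEET13, a carrier of sucrose and gibberellin, read 4.49, 4.14 and 4.89 in esd7-1, against 4.43, 3.77 and 4.29 in Ler. Its difference of 0.34 was the highest of the family and had a 95% interval of -0.24 to 0.93. It was 1.12 between the 2 arrays that stood apart and -0.05 among the other 4, so its sign rested on those 2 arrays. SWEET10, which neighbours SWEET13 on chromosome 5 and is known to be active at the shoot apex at floral transition, had a difference of 0.22 (limma adjusted p of 0.846). SWEET9, needed for nectar secretion, differed by 0.14 and SWEET14 by 0.06. SWEET15, known as the senescence-associated gene SAG29, differed by -0.08.

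The clade IV genes SWEET16 and SWEET17 encode carriers of the vacuolar membrane, as SWEET2 does, and their probe sets were bright enough for comparison, at percentiles 67.0 and 88.5. SWEET16 read 6.0, 6.02 and 5.93 in esd7-1, against 6.03, 6.39 and 6.13 in Ler. The closest arrays of the genotypes were nearly equal, and the difference of -0.20 had a 95% interval of -0.49 to 0.09. It was -0.097 without Ler replicate 2 and -0.07 without the 2 arrays that stood apart. SWEET17, a fructose carrier, read 8.01, 8.05 and 8.29 in esd7-1, against 8.23, 8.17 and 8.20 in Ler. Its difference of -0.08 had a 95% interval of -0.35 to 0.18 and turned to 0.027 with a second quantile normalization. Neither gene passed, with limma adjusted p of 0.846 and 0.888.

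**Figure D3:**
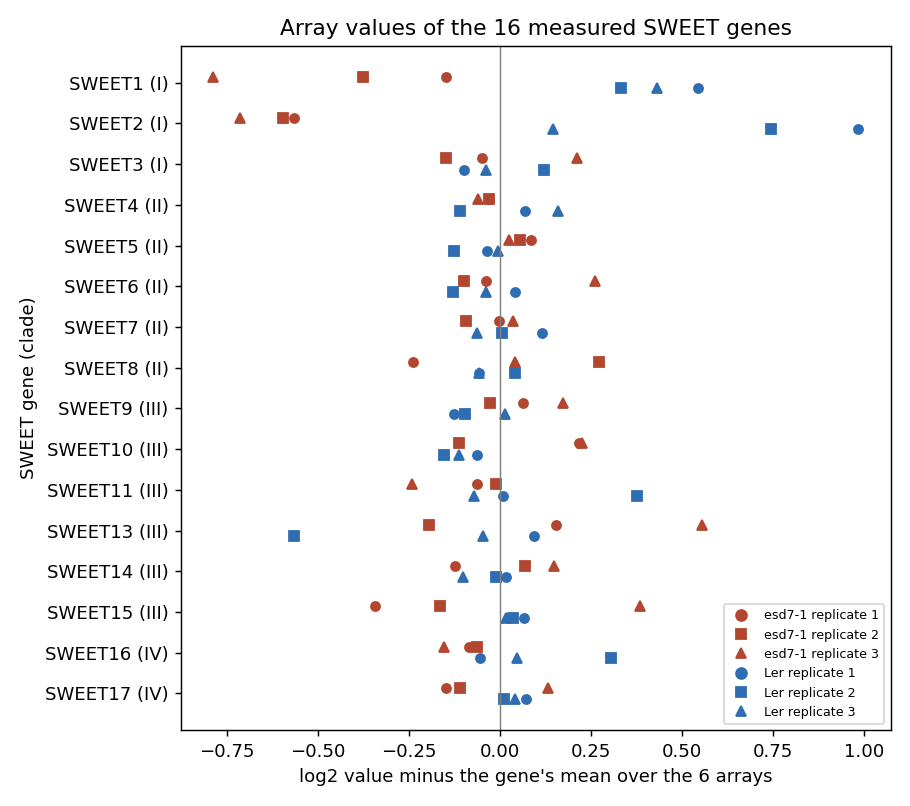
Log2 value of each array minus the gene's mean over the 6 arrays (horizontal axis) for the 16 measured SWEET genes (rows, clade in brackets); red marks are esd7-1, blue marks are Ler, and marker shapes are replicates. The genotypes stand clearly apart in the rows of SWEET1 and SWEET2, and SWEET13 has its highest value on esd7-1 replicate 3 and its lowest on Ler replicate 2.

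The genes most like SWEET1 and SWEET2 were taken as those with the smallest root-mean-square difference from their profile over the 6 arrays, after each gene's mean was subtracted. Since that profile holds the genotype difference, these genes are a description and were not tested. For SWEET1 the nearest was AT2G27290, at a root-mean-square difference of 0.065 on the log2 scale. AT2G27290 read 8.38, 8.08 and 7.76 in esd7-1, against 8.99, 8.68 and 8.87 in Ler, so it also had its lowest value on esd7-1 replicate 3. Next came MSRB6, a methionine sulfoxide reductase gene, at 0.097. It read 9.13, 8.94 and 8.42 in esd7-1, against 10.05, 9.58 and 9.70 in Ler. AT1G69800, AT3G45210 and AT5G13240 followed at 0.099, 0.110 and 0.115, with differences between genotypes of -0.76, -0.94 and -0.69.

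SWEET2 had no such close match on this measure, which is not scaled for the size of the genotype difference. SWEET2 differed by -1.25 between genotypes, and the 5 genes nearest to it by -0.95 to -0.79. AT3G45210 was the nearest, at a root-mean-square difference of 0.251, followed by AT1G61667 at 0.277, AT1G65490 at 0.278, AT1G68680 at 0.285 and MSRB6 at 0.310. AT3G45210 read 5.86, 5.69 and 5.52 in esd7-1, against 6.77, 6.59 and 6.52 in Ler. AT3G45210, AT1G61667, AT1G65490 and AT1G68680 were, like SWEET2, lowest within Ler on replicate 3, at 6.52, 5.32, 7.82 and 7.01, and MSRB6 was not. AT3G45210 and MSRB6 were among the 5 nearest of both SWEET genes. SWEET1 and SWEET2 differed from each other by 0.336, which made SWEET1 number 8 in the order of likeness to SWEET2 and SWEET2 number 518 in the order of likeness to SWEET1. Among the other SWEET genes SWEET11 was the nearest to each, at 0.404 from SWEET1 and 0.571 from SWEET2.

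**Figure D4:**
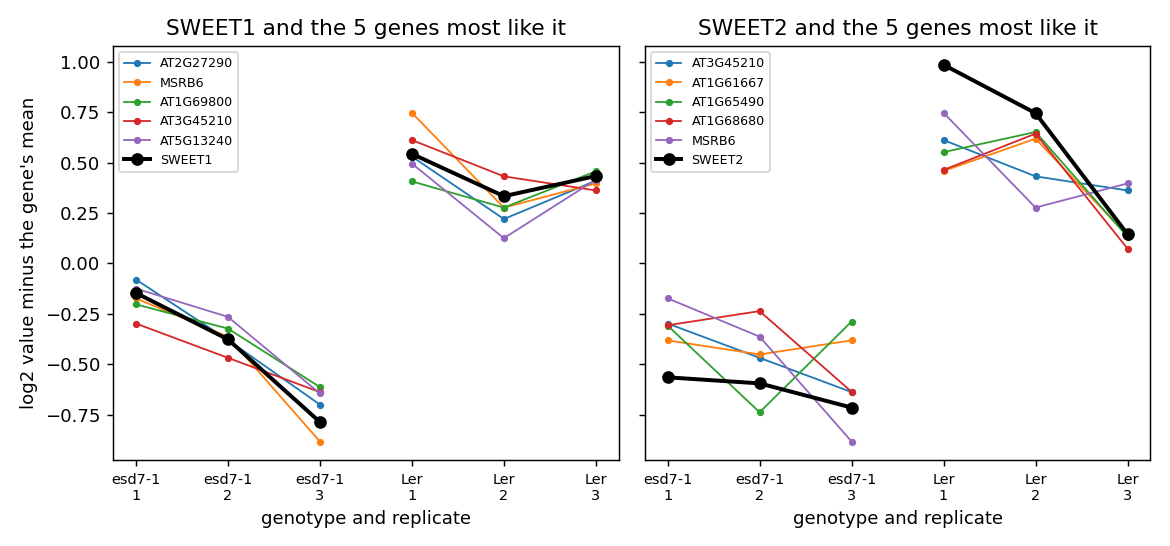
Log2 value minus the gene's mean (vertical axis) on each array (horizontal axis) for SWEET1 and SWEET2 (black) and the 5 genes nearest to each by root-mean-square difference; lines join the arrays of a genotype only to guide the eye. The genes near SWEET1 run within 0.115 of it on this measure, while those near SWEET2 lie 0.251 to 0.310 away, and Ler replicate 3 is its lowest Ler array.

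The 2 nearest measured genes on each side of SWEET1 and SWEET2 were read, by gene order in the RefSeq table of assembly TAIR10.1. Beside SWEET1 were AT1G21440, YUC11, AT1G21480 and AT1G21500, with differences of 0.59, 0.16, -0.08 and -0.05. YUC11 belongs to the YUCCA enzymes of auxin synthesis. AT1G21440 was the most variable, at 9.84, 10.01 and 8.34 in esd7-1, against 9.10, 7.97 and 9.34 in Ler, with its lowest value in each genotype on the 2 arrays that stood apart. Beside SWEET2 were AT3G14750, AT3G14760, AT3G14780 and AT3G14800, with differences of -0.13, -0.28, 0.03 and -0.02. The limma adjusted p of these 8 genes lay between 0.846 and 0.978, and none had an unadjusted p under 0.05.

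Other genes of sugar transport and use were taken from lists of 112 genes, of which 13 were measured under a name that the gene table gives. None passed over all probe sets (adjusted p between 0.773 and 0.986 in limma). Of the 13, 6 read higher and 7 lower in esd7-1, and their median difference was -0.023, against 0.0067 over all probe sets. In limma 1 of the 13 had an unadjusted p under 0.05, against 5.78% of all probe sets. Of the other transporters 11 were measured, of which 6 were dropped for their names, among them all those of the plasma membrane and plastid lists. The 5 kept were placed in the list for the vacuolar membrane, and no sucrose transporter of the SUC family was analysed here. SFP1, a sugar porter of the ERD6-like group, read 7.92, 7.95 and 8.62 in esd7-1, against 8.48, 8.79 and 8.38 in Ler. The groups overlapped through esd7-1 replicate 3, and the difference of -0.39 had a 95% interval of -0.91 to 0.14. TMT1 and TMT2, which load monosaccharides into the vacuole in exchange for protons, differed by 0.05 and -0.10. TMT1 read 7.29, 6.34 and 8.05 in esd7-1, against 7.05, 8.06 and 6.41 in Ler, and was thus highest on the 2 arrays that stood apart.

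The sucrose metabolism genes listed as SPP2 and VAC-INV1 had a probe set but were dropped for their names. Of the 7 measured genes of sucrose and starch metabolism that were kept, SPS4F had the largest difference. SPS4F encodes a sucrose phosphate synthase, the enzyme class that commits carbon to sucrose. It read 7.33, 7.57 and 7.71 in esd7-1, against 8.03, 8.03 and 8.19 in Ler, and the groups did not overlap. The difference was -0.55 with a limma standard error of 0.13, an unadjusted p of 0.00425 and an adjusted p of 0.773, so it did not pass. It was the 1 gene of the 13 with all esd7-1 arrays below all Ler arrays, as for 5.69% of all probe sets. CWINV6, named as a cell wall invertase, differed by 0.13. In starch metabolism PWD, a dikinase that primes starch for breakdown, differed by 0.04, the branching enzyme gene SBE2.2 by -0.12 and the plastid disproportionating enzyme gene DPE1 by 0.12. BZIP53, a transcription factor of the low-energy response and the 1 measured gene of the sugar starvation and signalling list, had a difference of 0.07 (limma adjusted p of 0.939).

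**Figure D5:**
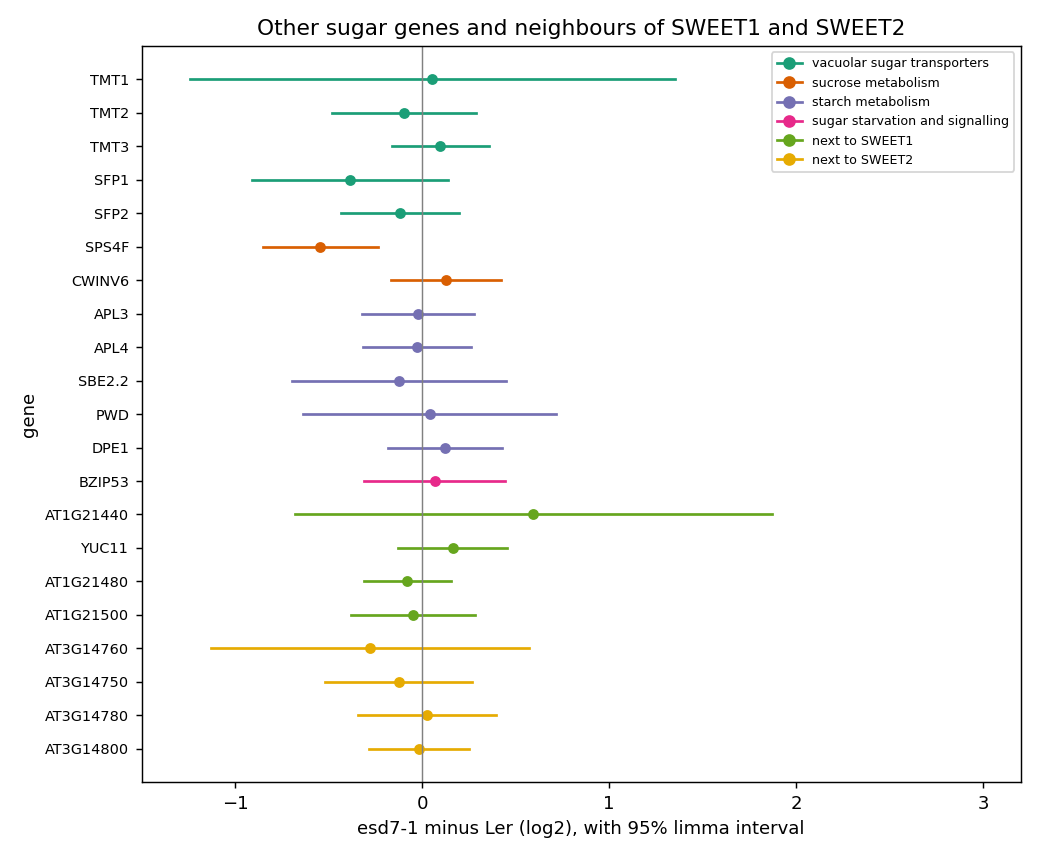
Esd7-1 minus Ler difference (horizontal axis, log2) with its 95% limma interval for 13 other sugar genes and for the 8 measured neighbours of SWEET1 and SWEET2 (rows, coloured by list). The interval of SPS4F is the 1 that does not reach 0, at a limma adjusted p of 0.773. Of all probe sets, 5.78% had an unadjusted p under 0.05 in limma. The intervals of TMT1 and AT1G21440 are the widest.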

How the data were processed

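RNA of 6 seedling pools, 3 of esd7-1 and 3 of Ler, was hybridized to Affymetrix arrays, and titles gave the groups. The authors deposited log2 expression per probe set. RMA and limma are the tools given, without versions, per the submitters' processing notes. Quantile normalization within RMA removes a general shift, and RMA values of dim probe sets are compressed. No other setting is stated in the labels. The table's 64 control probe sets, of 22810, were left out.

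Gene names come from the platform annotation, updated by gene identifier to the RefSeq table of TAIR10.1 (13436 of 13513 matched). Of the list genes, 8 measured loci whose listed name that table does not give were dropped. Two-sided moderated tests of genotype came from lmFit and eBayes of limma 3.58.1 (R 4.3.3). P-values were adjusted by Benjamini-Hochberg over the 22746 remaining probe sets, with 0.05 as the threshold, and the fit was tested on simulated data. The number of arrays limits the precision. Named genes are all measured SWEET genes, the 3 brightest measured members of each list, and the 5 genes nearest each of SWEET1 and SWEET2; the chromosomal neighbours were added after the values were seen. The members and lists were chosen with earlier results of these data known. Alternatives were a replicate block, a trended and robust variance, 2 scalings, a filter on dim probe sets, each array left out, array weights, a term for or removal of the arrays high in the poly-A control (over 0.5 above the median), another summary of probe sets and a threshold of 0.10.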

Additional observations from a re-analysis of the deposited data

How the results depend on the processing

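SWEET2 kept its direction under all 15 alternatives, at -1.49 (without Ler replicate 3) to -1.07 (without Ler replicate 1), and SWEET1 at -1.018 (without esd7-1 replicate 1) to -0.671 (array weights). With 1 array left out SWEET1 lay between -1.018 and -0.698. Both genes were selected on this difference, and their groups do not overlap, so leaving out or weighting arrays could not turn the direction. The replicate block, the other variance, the dim filter, the poly-A term and the other summary could not change the difference. Only the 2 scalings could have turned it. Median centring gave -0.883 for SWEET1 and -1.26 for SWEET2, and a second quantile normalization gave -0.761 and -1.164. Counts of called genes among the other SWEET genes and the sugar lists were 0 throughout. Called probe sets numbered 0, but 4 with the term for the 2 arrays high in the poly-A control, 4 with those arrays removed, 33 when arrays were weighted, and 0 to 1 with 1 array left out (1 without esd7-1 replicate 3). With the replicate block the count was 0. The block leaves the differences of SWEET1 and SWEET2 at -0.873 and -1.25 by design, since each number has 1 array of each genotype. The numbers were not taken as pairs, because of the correlations between the arrays' deviations. For same-numbered arrays these were 0.54 (number 1), -0.41 (number 2) and -0.60 (number 3). Under other numbers, esd7-1 replicate 2 correlated at 0.63 with Ler replicate 3, and esd7-1 replicate 3 at 0.59 with Ler replicate 2. What these arrays share was not tested. The arrays of number 1 shared a high 25S rRNA control.

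Of 677 differences recomputed for 46 genes, 47 changed sign, all small or, as for PYK10 and TMT1, with a wide spread. None of these was called. The cause was not tested. With a second quantile normalization they were SWEET3 -0.063, SWEET8 -0.014, SWEET14 -0.01, SWEET17 0.027, TMT2 0.018, AT1G21480 0.027, AT1G21500 0.022, AT3G14780 -0.051 and AT3G14800 0.022. With array weights they were SWEET3 -0.01, SWEET6 -0.007, SWEET8 -0.108, SWEET14 -0.032 and CWINV6 -0.041. With the arrays high in the poly-A control left out they were SWEET3 -0.03, SWEET6 -0.07, SWEET13 -0.045 and SBE2.2 0.09. Ranges on both sides of 0 when each array was dropped were SWEET3 -0.093 to 0.087, SWEET6 -0.027 to 0.153, SWEET7 -0.082 to 0.008, SWEET8 -0.073 to 0.182, SWEET15 -0.293 to 0.072, RCA -0.187 to 0.008, PYK10 -0.275 to 0.602, EXPA18 -0.033 to 0.257, EXPA7 -0.143 to 0.522, PWD -0.148 to 0.372, SBE2.2 -0.315 to 0.15, BZIP53 -0.033 to 0.212, TMT2 -0.258 to 0.007, TMT1 -0.358 to 0.497, AT1G21500 -0.157 to 0.063, AT3G14750 -0.247 to 0.008, AT3G14780 -0.083 to 0.13 and AT3G14800 -0.098 to 0.052. Dim signal limits what can be seen: 9 of the other 14 SWEET genes lay below percentile 40 of mean signal, and the filter on dim probe sets removed them.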
